A study of Mus musculus with 12 samples.

Results

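The genes described here encode proteins of the mitochondrial ribosome, of protein import into mitochondria and of the inner membrane carrier family. They were taken as the probe sets whose single platform gene symbol starts with Mrpl or Mrps (ribosome), Timm or Tomm (import) or Slc25 (carriers). The rule found 119 of the 12488 probe sets on the array, for 98 gene symbols. The ribosome class held 76 probe sets for 61 genes, the import class 19 for 17 genes and the carrier class 24 for 20 genes. The rule used names alone and no measured value, but it was set with earlier results of these data known.

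RNA came from mouse embryonic fibroblasts of the DBA strain that are KSR1-/- in every group. KSR1 is a scaffold protein that brings kinases of the Raf, MEK and ERK cascade together, and H-RasV12 is a constitutively active form of the Ras protein that feeds this cascade. The KSR1+H-RasV12 line (called the double line below) carried re-expressed KSR1 with H-RasV12, the KSR1 line KSR1 without H-RasV12, the H-RasV12 line H-RasV12 without KSR1, and the GFP line neither. All 4 lines carried green fluorescent protein. Each line was measured on 3 arrays, and nothing in the labels says that these came from separate cultures, so the p-values cover the spread between arrays of 1 line per condition, which may be technical.

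Mitochondrial ribosomes translate the few messages of mitochondrial DNA, which code for subunits of the respiratory chain and ATP synthase, and are built from nuclear-encoded proteins of a large (Mrpl) and a small (Mrps) subunit. Almost all other mitochondrial proteins are made in the cytosol and pass through the outer membrane translocase (Tomm), after which inner membrane translocases and small chaperones of the space between the membranes (Timm) sort them. Slc25 carriers exchange nucleotides, phosphate, cofactors and metabolites across the inner membrane, and a few family members sit in other membranes.

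The deposited values are MAS5 signals, intensities on a linear scale that the authors' scaling left with a 2% trimmed mean of 500.3 on each array. Signals of different probe sets are not comparable as amounts of RNA, so each was compared across groups alone. Fold changes are differences of log2(signal + 23) with their standard error (SE) from 1 limma fit. Probe sets whose signal passed 181.4, the median of the whole table, on 3 or more of the 12 arrays were tested. Of the members 99 passed this filter, 64 in the ribosome, 17 in the import and 18 in the carrier class, and 20 did not. The carriers below the filter were Slc25a14, Slc25a45, Slc25a47, Slc25a48, Slc25a53 and 1 probe set of Slc25a5, and the import genes below it were Timm10 and Timm8a2. In the ribosome class the 12 below it included both probe sets of Mrpl14 and of Mrpl49 and the single probe sets of Mrpl42, Mrpl55 and Mrps16, while the others belonged to genes with a further probe set above it.

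Ksr1 itself was examined first. Its s-type probe set read 301, 262 and 141 on the arrays of the double line, 933, 1605 and 207 on those of the KSR1 line, 20.2, 32.2 and 14.2 in the H-RasV12 line and 144, 21.1 and 37.5 in the GFP line. A further Ksr1 probe set averaged 294 ± 29.2 in the double line, 283 ± 76.4 in the KSR1 line, 200 ± 27.4 in the H-RasV12 line and 261 ± 55.0 in the GFP line (SD, n = 3 each), and which part of the gene either one reads is not given in the sources used here. Fibroblast markers were present in all lines, but their summed signal over 18 probe sets ran from 22307 to 35004 in the double line, against 41630 to 43027 in the KSR1 line, 55498 to 75463 in the H-RasV12 line and 59902 to 68457 in the GFP line. In RNA from a whole culture, fewer cells of a type and less RNA per cell cannot be told apart. Summed leukocyte markers stayed between 296 and 1012 on all arrays. Of 8 epithelial marker probe sets 2 passed the filter. Krt19 averaged 1209 ± 207 in the double line and 118 ± 17.1 in the GFP line, while Cdh1 averaged 595 ± 191 and 580 ± 122 in the same lines (SD, n = 3 each). The 18S control was lowest on replicate 1 of the double line (146), and the 3′ beta-actin control was 8629 there and 7981 on replicate 1 of the GFP line, against 16680 to 26873 on the other arrays. Their part in the results below was not tested, beyond the counts given without these arrays.

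Across the classes, called members lay on the high side in the double line, and they were a minority. Against the GFP line 16 of the 99 tested members were called higher (16.2%) and none lower, where 7.71% of all 6897 tested probe sets were called higher and 7.93% lower. Against the H-RasV12 line 11 members were called higher (11.1%) and none lower, with 7.1% and 7.71% over all tested probe sets. Against the KSR1 line 5 were called higher (5.05%) and none lower, with 8.16% and 6.92% over all tested probe sets, so that the share called higher was below the background there. At an unadjusted limma p under 0.05, 1 member was lower in each of these 3 comparisons, while 29, 31 and 22 were higher against the GFP, H-RasV12 and KSR1 lines. Here and below, counts at an unadjusted p are given without their share over all tested probe sets. Whether they exceed that share cannot be read from them. All 3 comparisons use the same double-line arrays and are not independent of each other.

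Without replicate 1 of both the double and the GFP line, an alternative added after the data were seen, 10 members were called higher against the GFP line, 12 against the H-RasV12 line and 11 against the KSR1 line. The counts over all tested probe sets without these arrays are not given here. When single arrays were left out, the count against the GFP line was 7 without GFP replicate 3, 8 without GFP replicate 1, 9 without the third double-line array and 10 without the second. The count against the H-RasV12 line was 5 when H-RasV12 replicate 1 was left out, and 7 when H-RasV12 replicate 2 or the third double-line array was. For the comparison with the KSR1 line, omitting KSR1 replicate 1, KSR1 replicate 2 or the third double-line array gave 3 calls, omitting the third KSR1 array gave 8, and omitting the first double-line array gave 9. Calls over all 6897 tested probe sets moved as well. Higher calls against GFP went from 532 to 348 without GFP replicate 3. Those against H-RasV12 went from 490 to 359 without H-RasV12 replicate 1. Without the first double-line array, 598 of 6897 were higher against KSR1, beside 9 of 99 members, so the shares were near each other.

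The transgenes on their own gave few calls among the members. H-RasV12 against GFP called 0 of 99 members in either direction with limma, against 0% called higher and 0.0725% lower over all tested probe sets, and 2 members were higher at an unadjusted p under 0.05. The arrays of the H-RasV12 line lay wholly above the GFP line for 3 members and wholly below for 4, beside 6.73% and 5.23% of all tested probe sets. KSR1 against GFP called 4 members higher and none lower, against 4.97% and 6.81% over all tested probe sets. Those 4 were Slc25a10, Tomm40, Mrpl34 and Mrpl38. At an unadjusted p under 0.05, 7 members were higher and 6 lower with KSR1, and the arrays did not overlap for 11 higher and 8 lower members, beside 14.9% and 15.8% of all tested probe sets. No member was called higher when KSR1 replicate 2, GFP replicate 2 or GFP replicate 3 was left out, and 2 were when KSR1 replicate 1, KSR1 replicate 3 or H-RasV12 replicate 3 was. Over all tested probe sets, the higher calls went from 343 to 204 without GFP replicate 3.

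**Figure D1:**
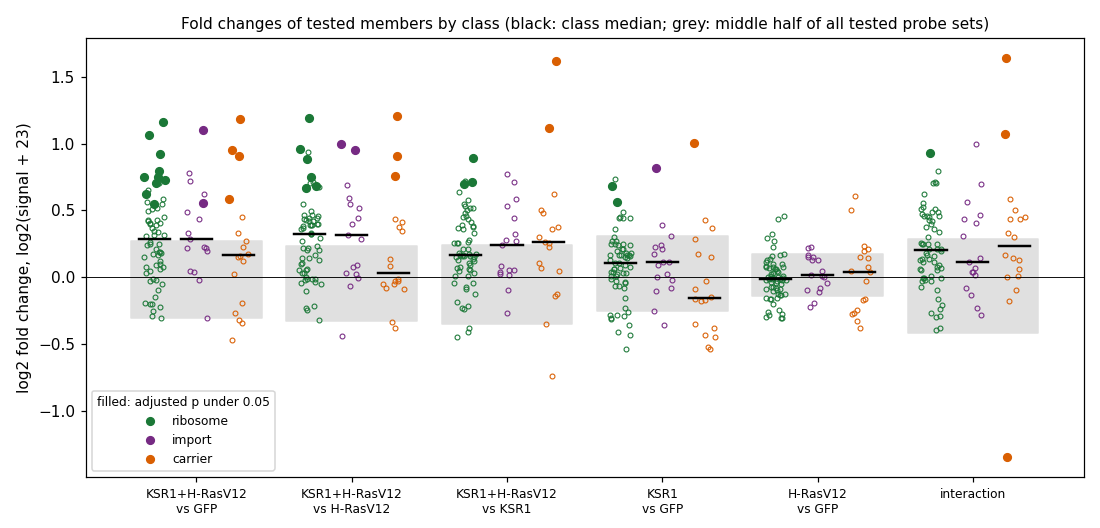
Log2 fold change (y axis, differences of log2(signal + 23)) of each tested member in the 5 comparisons and the interaction (x axis), with 1 point per probe set, coloured by class. Filled points passed the adjusted p of 0.05 in limma, black bars are class medians and grey boxes span the interquartile range of all tested probe sets. Filled points lie above 0 in every comparison that has any, apart from Slc25a10 at -1.35 in the interaction.

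As a description of the classes, the median log2 fold change of the tested ribosome members was 0.29 against GFP, 0.32 against H-RasV12 and 0.17 against KSR1, beside -0.02, -0.05 and -0.07 for all tested probe sets. Import members had medians of 0.28, 0.32 and 0.24, and carriers of 0.17, 0.03 and 0.26 in the same order. Without the filter, over all 119 members, the medians were 0.20, 0.25 and 0.15 for the ribosome, 0.23, 0.28 and 0.24 for import, and 0.16, 0.09 and 0.26 for carriers. The single-probe-set SE had a median of 0.21 to 0.24 across classes in these comparisons, so most single members moved by less than 2 SE. KSR1 against GFP gave medians of 0.10, 0.11 and -0.15 for ribosome, import and carriers, and H-RasV12 against GFP gave -0.01, 0.01 and 0.04. With single arrays left out, the KSR1 medians against GFP ran from 0.03 (without KSR1 replicate 3) to 0.16 for the ribosome, from 0.02 (without GFP replicate 1) to 0.20 (without KSR1 replicate 1) for import and from -0.23 (without KSR1 replicate 1) to -0.04 (without KSR1 replicate 3) for carriers. The H-RasV12 medians against GFP ran from -0.06 to 0.03, from -0.02 to 0.08 and from 0.02 to 0.09 in the same order. In the double line the import median against H-RasV12 was 0.12 without double-line replicate 3 and 0.48 without H-RasV12 replicate 3, and against KSR1 it was 0.11 without KSR1 replicate 1. The ribosome median against KSR1 was 0.11 without double-line replicate 1. The carrier median was 0.29 against GFP without GFP replicate 1, and 0.08 to 0.15 against H-RasV12 when any 1 array of these 2 lines was left out.

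The median signal of the 76 ribosome probe sets was 737, 673.5 and 698 on the 3 double-line arrays, 611, 613 and 672.7 in the KSR1 line, 529, 561 and 569 in the H-RasV12 line and 541, 565 and 531 in the GFP line. The double line lay clear of both lines without KSR1, while its lowest array only just exceeded the highest KSR1 array. For the 19 import probe sets the medians were 795, 761 and 872 in the double line, 677, 768 and 882 in the KSR1 line, 623, 796 and 685 in the H-RasV12 line and 708, 712 and 588 in the GFP line, and the groups overlapped, except the double line with the GFP line. For the 24 carriers they were 592, 453 and 427 in the double line, 506, 465 and 410 in the KSR1 line, 422, 432 and 423 in the H-RasV12 line and 461, 344 and 330 in the GFP line, with the highest value on replicate 1 of the double line. The mean signal was highest in the double line for 45 of 64 tested ribosome probe sets, 12 of 17 import and 8 of 18 carrier probe sets, beside 26.6% of all tested probe sets.

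**Figure D2:**
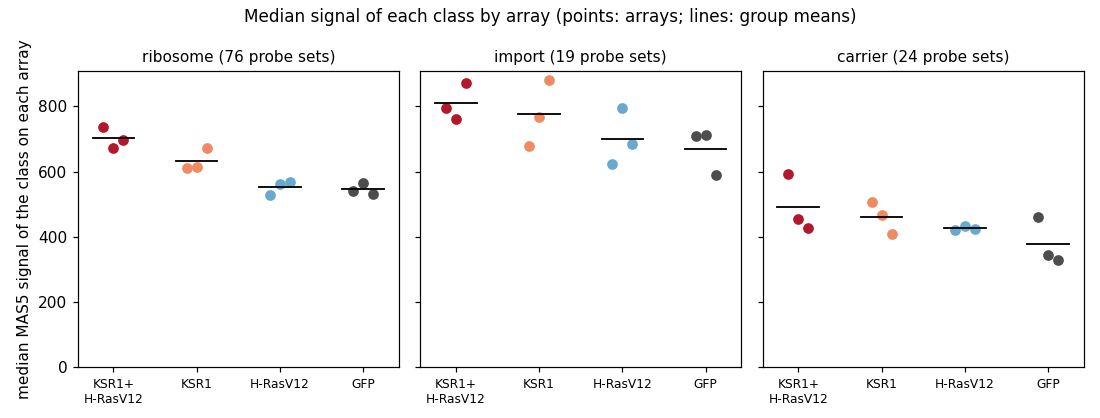
Median MAS5 signal (y axis, linear) of all probe sets of a class on each array, with the 4 lines on the x axis; points are arrays and bars group means. Ribosome medians of 673 to 737 in the double line lie above the 529 to 569 of the H-RasV12 line, while carrier medians overlap between lines.

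Promoter windows from RefSeq (GRCm38.p6, 250 bases before to 50 after a gene's start) matched 88 of the 98 member genes, and 5 are printed. Slc25a39 and Mrps36 had the lowest adjusted p of the carriers and of the ribosome class in the double line, Mrpl34 was high in both lines with KSR1, Timm8a1 had the largest fold change of the import class against GFP, and Timm8b holds 2 of the motifs searched. Short motifs known from promoters of mitochondrial genes were searched on both strands, namely CCGGAAG (bound by ETS factors such as GABP), TNAAGGTCA (the element of estrogen-related receptors), CGCATGCG (core of the NRF1 motif), CACGTG (the E-box, a palindrome) and AAGATGGCG (YY1). Capitals mark a match. Slc25a39 lies on chr11:102407468-102407767 (minus strand), Mrps36 on chr13:100744610-100744909 (minus strand), Mrpl34 on chr8:71464676-71464975 (plus strand), Timm8a1 on chrX:134541621-134541920 (minus strand) and Timm8b on chr9:50603651-50603950 (plus strand).
Slc25a39: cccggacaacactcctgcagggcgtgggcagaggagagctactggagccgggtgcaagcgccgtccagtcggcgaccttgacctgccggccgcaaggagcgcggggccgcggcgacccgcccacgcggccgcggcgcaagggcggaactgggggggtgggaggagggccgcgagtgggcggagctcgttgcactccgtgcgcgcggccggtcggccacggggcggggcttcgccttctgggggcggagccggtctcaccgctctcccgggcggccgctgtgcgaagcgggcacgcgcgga
Mrps36: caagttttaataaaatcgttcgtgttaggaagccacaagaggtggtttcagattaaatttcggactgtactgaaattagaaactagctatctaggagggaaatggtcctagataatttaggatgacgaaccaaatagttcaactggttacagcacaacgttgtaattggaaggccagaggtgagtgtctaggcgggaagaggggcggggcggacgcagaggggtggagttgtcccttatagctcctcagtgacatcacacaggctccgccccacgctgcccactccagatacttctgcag
Mrpl34: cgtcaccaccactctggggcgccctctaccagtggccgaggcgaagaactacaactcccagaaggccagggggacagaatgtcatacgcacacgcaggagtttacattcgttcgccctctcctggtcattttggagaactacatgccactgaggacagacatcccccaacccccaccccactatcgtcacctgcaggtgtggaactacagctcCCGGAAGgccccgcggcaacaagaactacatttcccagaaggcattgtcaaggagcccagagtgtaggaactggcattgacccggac
Timm8a1: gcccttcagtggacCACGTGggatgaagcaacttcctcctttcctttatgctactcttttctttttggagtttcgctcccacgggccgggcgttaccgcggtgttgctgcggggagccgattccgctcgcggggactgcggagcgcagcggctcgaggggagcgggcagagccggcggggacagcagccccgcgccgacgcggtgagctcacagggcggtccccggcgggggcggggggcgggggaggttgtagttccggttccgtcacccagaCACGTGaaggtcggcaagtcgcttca
Timm8b: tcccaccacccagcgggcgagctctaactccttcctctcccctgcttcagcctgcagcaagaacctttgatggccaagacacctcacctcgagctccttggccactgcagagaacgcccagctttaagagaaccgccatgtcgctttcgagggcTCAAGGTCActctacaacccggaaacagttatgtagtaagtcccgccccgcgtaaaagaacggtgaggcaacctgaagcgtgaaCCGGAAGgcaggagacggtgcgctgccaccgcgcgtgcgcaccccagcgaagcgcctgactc

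None of the 5 motifs is in the Slc25a39 and Mrps36 windows, which says only that these letters are not there. Mrpl34 holds CCGGAAG with its first letter 37 bases before the start, and Timm8b holds TCAAGGTCA at 96 and CCGGAAG at 12 bases before it. Over the member genes, CCGGAAG occurred in 31 of 88 (35.2%), beside 21.7% of the 4298 genes with a window among all tested probe sets and 9.93% of all 27025 genes with a window. Of the genes called higher in any comparison of the double line 14 had a window, and 4 of these (28.6%) held it, namely Mrpl34, Mrpl43, Mrps26 and Timm8b. The E-box was in 12 member genes (13.6%), beside 12.7% of genes among the tested probe sets and 8.09% of all, and Timm8a1 held it at 236 bases before and 24 bases after its start. AAGATGGCG was in 8 (9.09%, beside 3.84% and 1.64%), CGCATGCG in 4 (4.55%, beside 4.75% and 2.07%) and TNAAGGTCA in Timm8b alone (1.14%, beside 0.931% and 1.43%). These matches are descriptions of letters and show no binding.

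In the mitochondrial ribosome class, Mrps36 had the lowest adjusted p in each comparison of the double line. It was named as a small-subunit protein and has since been assigned to the oxoglutarate dehydrogenase complex. Its signal was 1632, 1323 and 1452 on the double-line arrays, 842, 806 and 691 in the KSR1 line, 755, 666 and 808 in the H-RasV12 line and 843, 653 and 800 in the GFP line. Every double-line array lay above all 9 others, and the other groups overlapped. The log2 fold change was 0.89 ± 0.17 against KSR1, 0.96 ± 0.17 against H-RasV12 and 0.92 ± 0.17 against GFP (limma adjusted p = 0.00231, 0.00134 and 0.00171). The H-RasV12 response with KSR1 minus that without it was 0.93 ± 0.24 (limma adjusted p = 0.0291), a call lost without KSR1 replicate 2 or 3, H-RasV12 replicate 1 or 2, or GFP replicate 1 or 3.

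Mrpl12, a large-subunit protein that also binds the mitochondrial RNA polymerase, read 2234, 1379 and 1757 in the double line, 1361, 1087 and 1081 in the KSR1 line, 637, 845 and 805 in the H-RasV12 line and 1280, 743 and 593 in the GFP line. The double line lay above all other arrays, by a small margin over replicate 1 of the KSR1 line. It was higher by 1.19 ± 0.26 than in the H-RasV12 line and by 1.07 ± 0.26 than in the GFP line (limma adjusted p = 0.00556 and 0.0109), and the value against KSR1 was 0.58 ± 0.26 (limma adjusted p = 0.164). Without GFP replicate 3 the adjusted p against GFP was 0.065.

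Mrpl34 was higher in both lines with KSR1 than in both lines without it. This large-subunit protein read 1574, 1049 and 1007 in the double line, 1015, 1087 and 1307 in the KSR1 line, 684, 738 and 665 in the H-RasV12 line and 636, 746 and 709 in the GFP line. Both lines with KSR1 lay above both lines without it on every array. The change was 0.68 ± 0.19 for KSR1 against GFP, 0.75 ± 0.19 for the double line against H-RasV12 and 0.75 ± 0.19 against GFP (limma adjusted p = 0.0311, 0.0151 and 0.0146), and 0.07 ± 0.19 against KSR1 (limma adjusted p = 0.859). The KSR1 call was lost without KSR1 replicate 2 or 3 or any GFP array, that against H-RasV12 without H-RasV12 replicate 1 or 3, and that of the double line against GFP without GFP replicate 1. Mrpl38 was higher in the KSR1 line than in the GFP line (0.56 ± 0.17, limma adjusted p = 0.0395). It was also higher in the double line than in the GFP line (0.73 ± 0.17, limma adjusted p = 0.00745). Its signal was 1040, 1077 and 1228 in the double line, 1052, 1101 and 841 in the KSR1 line, 861, 937 and 913 in the H-RasV12 line and 737, 649 and 609 in the GFP line, where the GFP arrays were the lowest of all. The H-RasV12 arrays lay above all GFP arrays as well (0.43, not called) and overlapped the KSR1 line. The KSR1 call of Mrpl38 was lost without KSR1 replicate 1 or 2, GFP replicate 2 or 3, or any H-RasV12 array.

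Both probe sets of Mrpl45, a protein of the large subunit near its exit tunnel, pointed the same way. The f-type probe set read 842, 1195 and 1552 in the double line, 667, 727 and 708 in the KSR1 line, 775, 674 and 724 in the H-RasV12 line and 685, 790 and 582 in the GFP line, and it was higher by 0.71 ± 0.21, 0.67 ± 0.21 and 0.75 ± 0.21 against those 3 lines (limma adjusted p = 0.0332, 0.045 and 0.0236). The other was higher by 0.79 ± 0.21 against GFP (limma adjusted p = 0.0197) and stood at 0.66 ± 0.21 against H-RasV12 and 0.55 ± 0.21 against KSR1 (limma adjusted p = 0.0507 and 0.106). Its call against GFP was lost without double-line replicate 2 or 3 or GFP replicate 1, and a call against H-RasV12 was gained without double-line replicate 1 or GFP replicate 1 and with the replicate block (the replicate number as a term). Replicate 1 was the lowest double-line array at both, yet above all arrays of the other lines. At the f-type probe set the call against KSR1 was lost without double-line replicate 2 or 3 or any KSR1 array, that against GFP without double-line replicate 2 or 3 or GFP replicate 1 or 3, and that against H-RasV12 whichever single array other than double-line replicate 1 was left out.

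Mrps26, of the small subunit, was higher in the double line than in the KSR1 line alone (0.70 ± 0.20, limma adjusted p = 0.0328). It read 959, 685.5 and 1213 in the double line, 536, 545 and 613 in the KSR1 line, 590, 716 and 804 in the H-RasV12 line and 727, 711 and 675 in the GFP line, so the double line overlapped the lines without KSR1. This call was lost without double-line replicate 1 or 3 or any KSR1 array. The large-subunit proteins Mrpl20, Mrpl15 and Mrpl43 were called against the lines without KSR1, Mrpl43 against GFP alone. Mrpl20 read 1237, 1067 and 1102 in the double line, 732, 765 and 987 in the KSR1 line, 500, 686.4 and 644 in the H-RasV12 line and 711, 903 and 604 in the GFP line, all double-line arrays being highest. Its change was 0.88 ± 0.20 against H-RasV12 and 0.62 ± 0.20 against GFP (limma adjusted p = 0.00662 and 0.0467), and the call against GFP was lost in 14 of 22 alternatives. Mrpl15 was higher by 0.68 ± 0.20 and 0.70 ± 0.20 against the same 2 lines (limma adjusted p = 0.0319 and 0.0255), and Mrpl43 by 0.55 ± 0.17 against GFP (limma adjusted p = 0.0426). The Mrpl15 call against H-RasV12 was lost without double-line replicate 3 or H-RasV12 replicate 1 or 2, and that against GFP without double-line replicate 3 or GFP replicate 1 or 3. The Mrpl43 call was lost whichever single array other than KSR1 replicate 1 was left out.

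Mrps25 had the highest fold change of the class against GFP in 1 of its probe sets and not in the other. The f-type probe set read 634, 1213 and 1414 in the double line, 481, 494 and 985 in the KSR1 line, 531, 491 and 565 in the H-RasV12 line and 381, 572 and 412 in the GFP line (1.16 ± 0.31 against GFP, limma adjusted p = 0.0176). This call was lost without double-line replicate 2 or 3 or GFP replicate 1 or 3. The other probe set averaged 389 ± 19.4 in the double line and 311 ± 137 in the GFP line (SD, n = 3 each; 0.41 ± 0.28, limma adjusted p = 0.402). In the array's naming an f suffix marks probes that can match several related sequences, so the f-type value is uncertain as a measure of Mrps25.

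The remaining ribosome members filled the range around these. In the double line against GFP the 64 tested probe sets ran from -0.31 (Mrps14) to 1.16 (Mrps25), with 51 above 0. The large subunit had 8 of 40 called higher (20.0%) with a median of 0.29, and the small subunit 2 of 24 (8.33%) with a median of 0.29, beside 7.71% called higher over all tested probe sets. Against the KSR1 line the range was -0.45 (Mrpl33) to 0.89 (Mrps36). Mrps10 had the highest value for KSR1 against GFP, 0.74 ± 0.29 (limma adjusted p = 0.13), and Mrps28 the lowest at -0.53.

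Among the import genes the calls of the double line were for small chaperones and for a channel subunit of the inner membrane translocase. Timm8a1 is a small chaperone of the intermembrane space whose human counterpart is mutated in deafness-dystonia syndrome. It read 1510, 1578 and 2465 in the double line, 1097, 865 and 1378 in the KSR1 line, 590, 1096 and 1214 in the H-RasV12 line and 794, 1103 and 653 in the GFP line. All double-line arrays were above all others. The change was 0.95 ± 0.29 against H-RasV12 and 1.10 ± 0.29 against GFP (limma adjusted p = 0.0407 and 0.0181), and 0.71 ± 0.29 against KSR1 (limma adjusted p = 0.127). The call against H-RasV12 was lost without double-line replicate 2 or 3, KSR1 replicate 1 or H-RasV12 replicate 1 or 2, and that against GFP without double-line replicate 3 or GFP replicate 3.

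Timm17a, a subunit of the presequence translocase, read 3030, 3524 and 4817 in the double line, 1800, 1824 and 3083 in the KSR1 line, 1543, 1872 and 2193 in the H-RasV12 line and 1442, 2652 and 2638 in the GFP line. The double line did not overlap the lines without KSR1 and overlapped the KSR1 line. It was higher by 1.00 ± 0.28 than in the H-RasV12 line (limma adjusted p = 0.0248; lost without double-line replicate 2 or 3 or H-RasV12 replicate 1 or 2), and stood at 0.78 ± 0.28 against KSR1 and 0.78 ± 0.28 against GFP (limma adjusted p = 0.0791 and 0.0772). With the replicate block both were called, and the call against KSR1 was also gained without KSR1 replicate 3 or GFP replicate 1. Its paralog Timm17b passed no test and read 1422, 1181 and 1323 in the double line, 1356, 1410 and 1042 in the KSR1 line, 1730, 1742 and 1856 in the H-RasV12 line and 1513, 1576 and 1785 in the GFP line (-0.44 ± 0.17 against H-RasV12, limma adjusted p = 0.0997). Timm23, the channel-forming partner of both, read 5170, 4260 and 5536 in the double line, 3153, 3990 and 4937 in the KSR1 line, 3021, 3771 and 3617 in the H-RasV12 line and 3606, 3847 and 3543 in the GFP line (0.52 ± 0.19 against H-RasV12, limma adjusted p = 0.0815).

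Timm8b, another small chaperone, was called against GFP (0.56 ± 0.18, limma adjusted p = 0.0474) with 1415, 1158 and 988 in the double line, 874, 768 and 935 in the KSR1 line, 879, 796 and 717 in the H-RasV12 line and 748, 889 and 742 in the GFP line. This call was lost in 16 of 22 alternatives, where the adjusted p ran from 0.0296 to 0.286. Of the other small chaperones Timm9 read 304, 255 and 453 in the double line, 212, 279 and 328 in the KSR1 line, 134, 228 and 240 in the H-RasV12 line and 219, 272 and 196 in the GFP line. Timm13 read 4075, 4189 and 4351 in the double line, 3599, 4286 and 4649 in the KSR1 line, 3557, 4445 and 4010 in the H-RasV12 line and 2748, 3898 and 4320 in the GFP line. For Timm9 the double line lay above the H-RasV12 line and overlapped the others, for Timm13 all groups overlapped, and neither passed the test in any comparison. Timm10, below the filter, read 192, 162 and 117 in the double line, 150, 121 and 88.3 in the KSR1 line, 112, 124 and 138 in the H-RasV12 line and 184, 135 and 122 in the GFP line. The adjusted p against GFP was 0.282 for Timm9 and 0.508 for Timm13 in limma.

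Tomm40, the pore of the outer membrane translocase, was the import gene called for KSR1 against GFP. It read 1280, 761 and 858 in the double line, 1117, 1044 and 882 in the KSR1 line, 504, 801 and 583 in the H-RasV12 line and 743, 448 and 533 in the GFP line. KSR1 arrays lay above all arrays of both lines without KSR1, while the double line overlapped the H-RasV12 line. The change was 0.82 ± 0.24 for KSR1 against GFP and 0.72 ± 0.24 for the double line against GFP (limma adjusted p = 0.0415 and 0.0593). The KSR1 call was lost without any 1 KSR1 array, H-RasV12 replicate 3 or GFP replicate 2 or 3. It was also lost with no filter on low values and with no intensity trend. The double line was called against GFP with the replicate block, with median centring and without double-line replicate 2 or GFP replicate 1. The receptors of that translocase gave no call, with Tomm20 at 0.04 ± 0.22 and the probe sets of Tomm70a at 0.62 ± 0.27 and 0.33 ± 0.33 in the double line against GFP (limma adjusted p = 0.949, 0.148 and 0.597). Tomm20 read 359, 624 and 537 in the double line, 677, 582 and 551 in the KSR1 line, 410, 462 and 607 in the H-RasV12 line and 530, 448 and 470 in the GFP line. The dimmer probe set of Tomm70a read 282, 412 and 646 in the double line, 235, 325 and 304 in the KSR1 line, 258, 317 and 383 in the H-RasV12 line and 228, 309 and 269 in the GFP line. Its f-type probe set read 795, 1530 and 1950 in the double line, 656, 713 and 1472 in the KSR1 line, 850, 926 and 1174 in the H-RasV12 line and 878, 1029 and 1302 in the GFP line. Replicate 1 was the lowest double-line array at each of these 3 probe sets. The groups overlapped, except that every KSR1 array lay above every GFP array at Tomm20. Timm44, which tethers the import motor to the translocase, stood at 0.20 ± 0.17 (limma adjusted p = 0.517), with 672, 743 and 758 in the double line, 670, 503 and 620 in the KSR1 line, 790, 653 and 685 in the H-RasV12 line and 654, 645 and 588 in the GFP line.

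Carriers included the member with the lowest adjusted p in each comparison of the double line. Slc25a39, which is needed for glutathione uptake into mitochondria, read 5208, 5447 and 4997 in the double line, 1572, 1739 and 1755 in the KSR1 line, 2010, 2074 and 2715 in the H-RasV12 line and 2024, 2340 and 2529 in the GFP line. Its lowest double-line array was above the highest of the 9 other arrays by a wide margin, and the KSR1 line was the lowest. The log2 fold change was 1.62 ± 0.17 against KSR1, 1.21 ± 0.17 against H-RasV12 and 1.18 ± 0.17 against GFP (limma adjusted p = 1.99e-05, 0.00017 and 0.000178). H-RasV12 against GFP gave -0.03 ± 0.17 (limma adjusted p = 1) and KSR1 against GFP -0.43 ± 0.17 (limma adjusted p = 0.115). The H-RasV12 response with KSR1 exceeded that without it by 1.64 ± 0.24 (limma adjusted p = 0.000802). These 4 calls held in each of the 22 alternatives.

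Slc25a51, the carrier for NAD+, separated the double line at its f-type probe set and not at the other. The f-type probe set read 913, 773 and 799 in the double line, 310, 423 and 379 in the KSR1 line, 394, 457 and 440 in the H-RasV12 line and 421, 365 and 464 in the GFP line. The double line lay above every other array. Its change was 1.12 ± 0.18, 0.91 ± 0.18 and 0.96 ± 0.18 against the KSR1, H-RasV12 and GFP lines (limma adjusted p = 0.000609, 0.00273 and 0.00178). The other probe set read 972, 1171 and 846 in the double line, 753, 879 and 673 in the KSR1 line, 882, 932 and 879 in the H-RasV12 line and 962, 664 and 745 in the GFP line. There the groups overlapped, and the change against GFP was 0.33 ± 0.19 (limma adjusted p = 0.296).

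The ADP/ATP carriers, which exchange matrix ATP for cytosolic ADP, gave a call for Slc25a5 at 1 of its probe sets and none for Slc25a4. The f-type probe set of Slc25a5 read 3115, 4445 and 4705 in the double line, 2638, 3263 and 2775 in the KSR1 line, 2604, 2969 and 1724 in the H-RasV12 line and 2087, 2232 and 2101 in the GFP line, where the double line overlapped the KSR1 line alone. It was higher by 0.90 ± 0.22 than in the GFP line and by 0.76 ± 0.22 than in the H-RasV12 line (limma adjusted p = 0.00977 and 0.028), and the call against H-RasV12 was lost without double-line replicate 2 or 3 or H-RasV12 replicate 1 or 3. A second probe set of the gene averaged 344 ± 57.9 in the double line and 320 ± 141 in the GFP line (SD, n = 3 each; 0.16 ± 0.28, limma adjusted p = 0.794). Slc25a4 read 8141, 12599 and 11571 in the double line, 5744, 6312 and 8941 in the KSR1 line, 7963, 7584 and 8322 in the H-RasV12 line and 6282, 8145 and 9101 in the GFP line (0.62 ± 0.22 against KSR1, limma adjusted p = 0.0721; called with the replicate block, with quantile normalization and without double-line replicate 1 or KSR1 replicate 3). Replicate 1 of the double line lay within the range of the other groups.

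Slc25a10, which exchanges dicarboxylates such as malate and succinate for phosphate, had its highest values in the KSR1 line. It read 618, 384 and 326 in the double line, 622, 971 and 638 in the KSR1 line, 510, 631 and 506 in the H-RasV12 line and 508, 323 and 262 in the GFP line. KSR1 arrays were above all GFP arrays (1.01 ± 0.28, limma adjusted p = 0.0279). That call was lost without KSR1 replicate 2 or GFP replicate 2 or 3, and with no filter on low values. The double line against KSR1 was -0.74 ± 0.28 (limma adjusted p = 0.093). This became a lower call with the replicate block, with replicates 2 and 3 alone, without both arrays of low beta-actin and without double-line replicate 1 (lowest adjusted p 0.00831 in limma). H-RasV12 against GFP stood at 0.61, the highest of the tested members there, and was not called. The H-RasV12 response with KSR1 minus that without it was -1.35 ± 0.39 (limma adjusted p = 0.0489), a call lost in 14 of 22 alternatives. Replicate 1 was the highest array of both the double and the GFP line.

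**Figure D3:**
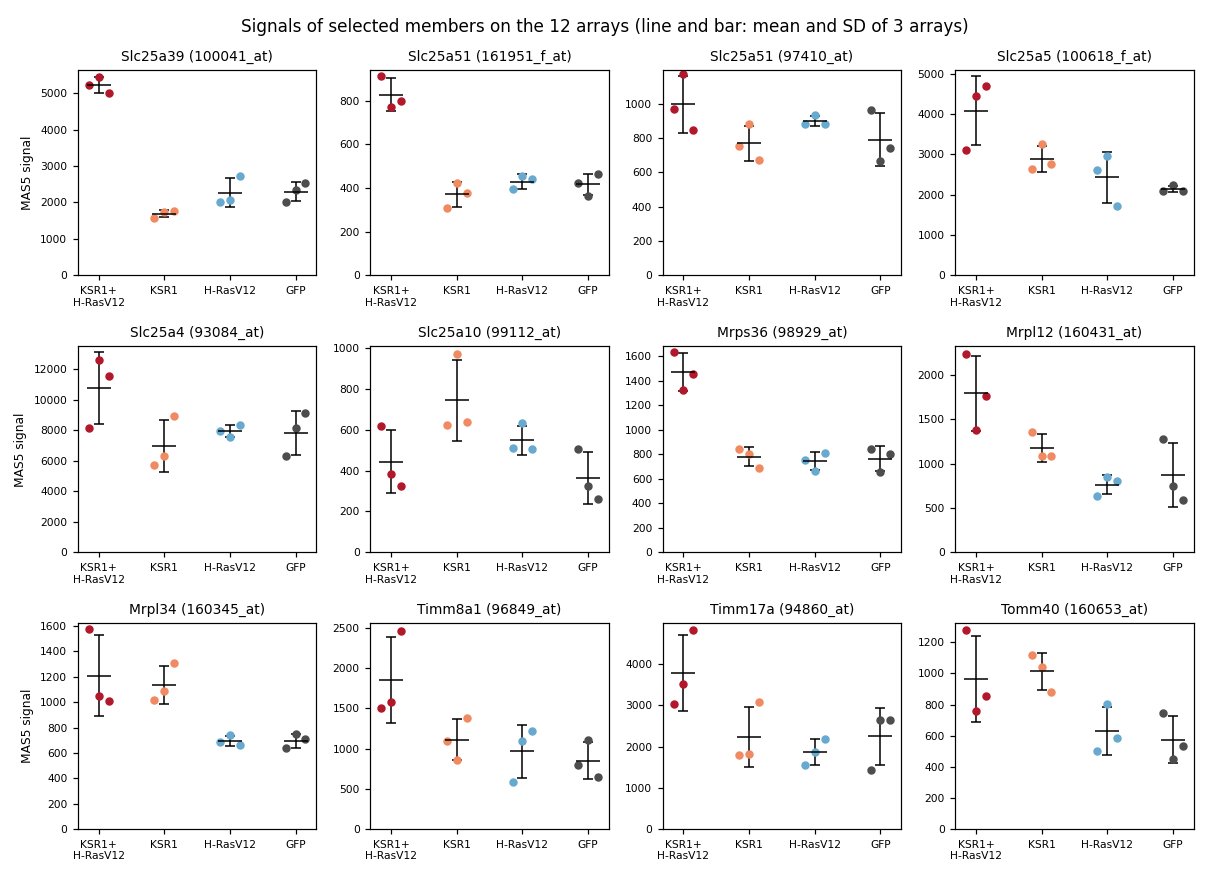
MAS5 signal (y axis, linear, from 0) of 12 member probe sets on the arrays of the 4 lines (x axis), with points for arrays and lines and bars for the mean and SD of 3 arrays. Slc25a39 lies at 4997 to 5447 in the double line and at no more than 2715 elsewhere, Slc25a51 separates at its f-type probe set and overlaps at the other, and Mrpl34 is high in both lines with KSR1.

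Other carriers varied in both directions. Slc25a28, an iron importer known as mitoferrin-2, was higher by 0.59 ± 0.18 in the double line than in the GFP line (limma adjusted p = 0.0341; lost without double-line replicate 1 or 2 or any 1 GFP array), with 554, 492 and 435 in the double line, 364, 439 and 455 in the KSR1 line, 356, 398 and 368 in the H-RasV12 line and 344, 321 and 294 in the GFP line. Slc25a17, a carrier of peroxisomes, had the lowest value of the class against GFP, -0.47 ± 0.18 (limma adjusted p = 0.109), and -0.54 ± 0.18 for KSR1 against GFP (limma adjusted p = 0.0743). The carnitine-acylcarnitine carrier Slc25a20 read 580, 557 and 419 in the double line, 690, 548 and 488 in the KSR1 line, 685, 408 and 542 in the H-RasV12 line and 727, 598 and 625 in the GFP line. The oxoglutarate carrier Slc25a11 read 1267, 1173 and 1219 in the double line, 1525, 772 and 873 in the KSR1 line, 964, 856 and 1057 in the H-RasV12 line and 1485, 898 and 939 in the GFP line, and replicate 1 of the KSR1 and GFP lines lay above every double-line array. The brighter probe set of the citrate carrier Slc25a1 read 1583, 1677 and 1415 in the double line, 1576, 1209 and 1051 in the KSR1 line, 1767, 1434 and 1765 in the H-RasV12 line and 1524, 1127 and 1587 in the GFP line. The other Slc25a1 probe set read 636, 655 and 593 in the double line, 515, 492 and 432 in the KSR1 line, 745, 638 and 575 in the H-RasV12 line and 655, 451 and 789 in the GFP line, the KSR1 line being below the double line there on all arrays. The phosphate carrier Slc25a3 was dim at its only probe set, at 208, 49.2 and 95.4 in the double line, 244, 178 and 52.6 in the KSR1 line, 57.0, 136 and 141 in the H-RasV12 line and 75.4, 184 and 122 in the GFP line. None of these 4 genes passed the limma test in any comparison.

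The interaction asks whether the response to H-RasV12 depended on KSR1. It called 3 members higher (3.03%) and 1 lower (1.01%), both below the 4.16% and 3.54% of all tested probe sets. These were Slc25a39, Slc25a51 (f-type probe set) and Mrps36 higher and Slc25a10 lower. At an unadjusted p under 0.05, 7 were higher and 1 lower. Import genes gave no call in the interaction in limma, with Timm17a highest at 1.00 ± 0.39 (limma adjusted p = 0.159; called with the replicate block, without both arrays of low beta-actin and without GFP replicate 1, lowest adjusted p 0.0192) and 1 import member passing an unadjusted p under 0.05. With replicates 2 and 3 alone 1 of the 3 higher calls was left, as it was without GFP replicate 3, which ended the call for Slc25a51 and Mrps36.

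Members whose arrays did not overlap between groups were counted without a model. The double line lay wholly above the GFP line for 29 of 99 members and wholly below for 4, where the background over all tested probe sets was 13.9% and 14.4%. It lay above the H-RasV12 line for 33 and below for 1, with a background of 13.8% and 15.5%. Against the KSR1 line the counts were 18 and 1, with a background of 13.9% and 14.1%, so this count of higher members was above its background where the share of limma calls was below. By class, 19 of 64 ribosome, 6 of 17 import and 4 of 18 carrier probe sets lay above the GFP line.

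Set beside other mitochondrial and ribosomal genes, the member classes had medians below that of the respiratory chain genes. That list, of nuclear-encoded respiratory chain and ATP synthase genes, had 34 of 68 tested probe sets called higher against KSR1 with a median log2 fold change of 0.74, 25 against H-RasV12 (0.57) and 22 against GFP (0.56). Cytosolic ribosomal protein genes had 1 of 27 called higher against KSR1 and none against H-RasV12 or GFP with limma, with medians of -0.01, -0.09 and -0.08. Over all tested probe sets 8.16%, 7.1% and 7.71% were called higher against KSR1, H-RasV12 and GFP. Lower calls of both lists are not given here. No test of the difference between the lists was made.

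**Figure D4:**
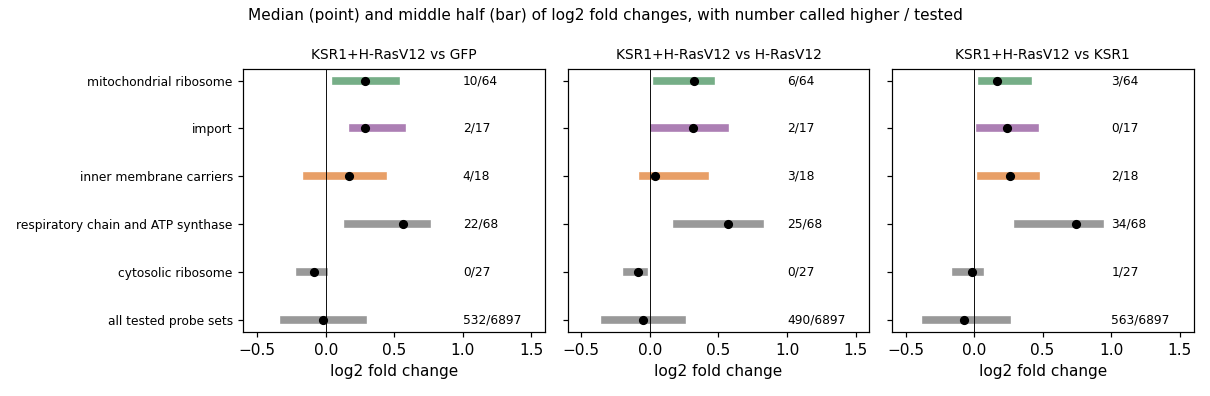
Median (point) and interquartile range (bar) of the log2 fold change (x axis) in the double line against each other line, for the 3 member classes, 2 further gene lists and all tested probe sets (y axis); the figures at the right give the number called higher of those tested. Respiratory chain medians of 0.56 to 0.74 exceed those of the member classes, 0.03 to 0.32, and cytosolic ribosomal proteins lie between -0.09 and -0.01.

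Genes that work with the members were read from lists chosen by function. Of 15 tested probe sets of mitochondrial translation factors 4 were called higher and 1 lower against GFP (7.71% and 7.93% over all tested probe sets), 4 higher against H-RasV12 (7.1% over all) and 2 higher against KSR1 (8.16% over all). The elongation factor Gfm1 read 615, 938 and 1498 in the double line, 516, 581 and 615 in the KSR1 line, 301, 410 and 459 in the H-RasV12 line and 417, 432 and 334 in the GFP line (1.23 ± 0.27 against GFP, limma adjusted p = 0.00533). The isoleucyl-tRNA synthetase Iars2 was higher by 0.84 ± 0.20 and the mRNA-binding protein Lrpprc by 0.72 ± 0.21 against GFP (limma adjusted p = 0.00909 and 0.0297). The elongation factor Tufm rose by 0.86 ± 0.25 at 1 probe set (limma adjusted p = 0.0284) and had an adjusted p of 0.998 in limma at its r-type probe set, and the seryl-tRNA synthetase Sars2 was lower (-0.56 ± 0.18, limma adjusted p = 0.0484). The calls of Gfm1 and Iars2 held in each of the 22 alternatives, that of Sars2 was lost in 17, that of Tufm without double-line replicate 1 or 3 or GFP replicate 2, and that of Lrpprc without double-line replicate 3 or GFP replicate 2 or 3.

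Of 23 tested probe sets of import partners, matrix chaperones and proteases 4 were higher against KSR1 (17.4%, beside 8.16% over all tested probe sets). Against H-RasV12 and against GFP 2 were higher each (8.70%), near the backgrounds of 7.1% and 7.71%. KSR1 against GFP had 0 higher and 3 lower in limma, beside 4.97% and 6.81%. The matrix protease Lonp1 read 971, 1526 and 1288 in the double line, 221, 400 and 545 in the KSR1 line, 945, 925 and 1143 in the H-RasV12 line and 706, 751 and 788 in the GFP line. It was higher in the double line than in the KSR1 line by 1.70 ± 0.26 and lower in the KSR1 line than in the GFP line (-0.99 ± 0.26, limma adjusted p = 0.00047 and 0.024; the KSR1 call was lost without KSR1 replicate 1 or 2 or GFP replicate 2 or 3). The outer membrane protein Mtx2 and the import motor chaperone Hspa9 were higher than in the KSR1 line by 1.14 ± 0.18 and 1.04 ± 0.18 (limma adjusted p = 0.000458 and 0.00116). Of 10 tested probe sets of other transport proteins 2 were higher against KSR1 (8.16% over all tested probe sets), the outer membrane channel Vdac2 (1.26 ± 0.26) and Mtch2 (1.01 ± 0.21, limma adjusted p = 0.0041 and 0.00461).

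For genes of mitochondrial DNA and its transcription 1 of 7 tested probe sets was called higher against GFP (7.71% over all tested probe sets), Pnpt1, an RNA exonuclease (0.93 ± 0.21, limma adjusted p = 0.00662). Tfam, which packages mitochondrial DNA, was below the filter. Of 14 probe sets on a list of nuclear regulators 7 were tested. Esrra and Myc alone are named here, picked after their values were seen, so they do not stand for the list. The number called on this list is not given. Esrra, the receptor that binds the TNAAGGTCA element, was higher at both probe sets against GFP, by 2.00 ± 0.31 at the f-type one (limma adjusted p = 0.000379). The other read 1194, 893 and 1012 in the double line, 722, 505 and 437 in the KSR1 line, 351, 367 and 255 in the H-RasV12 line and 677, 248 and 383 in the GFP line (1.30 ± 0.30 against GFP, limma adjusted p = 0.00754). Myc, a transcription factor with many targets in ribosome production, read 534, 204 and 192 in the double line and 772, 743 and 630 in the KSR1 line (-1.29 ± 0.29, limma adjusted p = 0.00714), its highest double-line array being replicate 1. Its values in the H-RasV12 and GFP lines are not given here, so only the double and KSR1 lines are compared. A link of Esrra or Myc to the members was not tested. Of the fibroblast markers 7 of 14 tested probe sets were called lower in the double line against GFP and 9 against H-RasV12 in limma, beside 7.93% and 7.71% over all tested probe sets.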

How the data were processed

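RNA of 4 cell lines was measured on 12 single-colour Affymetrix arrays, 3 per line. The deposited values are signal intensities on a linear scale made with MAS5, per the submitters' processing notes, and the version and scaling target are not given in the sources used here. MAS5 subtracts mismatch probe signal, so dim probe sets are noisy. The deposited table holds 12488 probe sets, 66 of them controls. The platform annotation gives 10833 of them 1 gene symbol, 396 several and 1193 none, and 10817 of those with 1 symbol were found in the RefSeq gene table. A further 7 probe sets that list a member name among several symbols were left out.

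Values were analysed as log2(signal + 23), where 23 is the rounded 20th percentile of all values. Probe sets above 181.4 on at least 3 arrays were tested (6897), and 5525 others were below this filter. Group means of all 12 arrays were fitted in 1 model with limma 3.58.1 (R 4.3.3, intensity trend, 8 residual degrees of freedom), two-sided, with Benjamini-Hochberg adjustment over all tested probe sets and a threshold of 0.05. The 6 comparisons share arrays. Overlap of arrays between groups was counted on the deposited signals. The number of arrays limits the precision. On simulated data with known changes, limma recovered 46% to 60% of 2-fold changes in the comparisons between lines and 23% in the interaction, and 90% to 97% and 72% of 4-fold changes.

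Values on every array are given for up to 3 called members in each direction, class and comparison, in order of the absolute fold change, and for a list of well-known carriers, translocase subunits and small chaperones. Other members and genes that are named were picked from the tables after their values were seen. The members and all gene lists were chosen with earlier results of these data known. Alternatives were other pseudocounts, filters and scalings, the replicate number as a block, no intensity trend, and arrays left out, each applied to every called member. Promoters were read from RefSeq windows (GRCm38.p6), and protein features were not analysed here. Tables were handled with Python 3.11.15 and pandas 2.3.3.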

Additional observations from a re-analysis of the deposited data

Results flagged for a closer look

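The response to H-RasV12 differed between lines with and without KSR1 for 4 members in the limma interaction test. Of the tested members 3.03% were called higher and 1.01% lower, both below the 4.16% and 3.54% over all tested probe sets. The double line minus the KSR1 line, less the H-RasV12 line minus the GFP line, was 1.64 ± 0.24 for Slc25a39 (SE, limma adjusted p = 0.000802), and this call held in all 22 alternatives. It was 1.07 ± 0.25 for the f-type probe set of Slc25a51 (limma adjusted p = 0.0178), where the call was lost in 2 alternatives (adjusted p 0.0131 to 0.125 over all of them). For Mrps36 it was 0.93 ± 0.24 (limma adjusted p = 0.0291), lost in 8 alternatives (0.0196 to 0.113). For Slc25a10 it was -1.35 ± 0.39 (limma adjusted p = 0.0489), lost in 14 (0.00288 to 0.138). The other probe set of Slc25a51 passed no test.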

How the results depend on the processing

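Over 22 alternatives, 219 counts of called members stayed within 1.5 times and 45 moved further, and no called member reversed its direction. Many of the 219 were counts of 0 that stayed at 0, such as the lower calls of the double line against H-RasV12 and GFP. H-RasV12 against GFP called 0 members in all 22 alternatives. For KSR1 against GFP the 4 higher calls became 2 with no filter on low values and 2 with no intensity trend, and 0 to 5 when single arrays were left out, with 0 to 1 lower call. Of the double line, higher calls against KSR1 (5) became 10 with the replicate block and 11 without both arrays of low beta-actin, and 3 to 9 when single arrays were left out. Lower calls there (0) became 1 with the replicate block, 1 with replicates 2 and 3 alone and 1 without the low beta-actin arrays, and 0 to 1 without single arrays. Higher calls against H-RasV12 (11) were 9 to 16 under the settings other than leaving out single arrays and 5 to 13 with single arrays left out. Higher calls against GFP (16) became 10 with replicates 2 and 3 alone, 10 without the low beta-actin arrays and 21 with the replicate block, and 7 to 16 without single arrays. In the interaction, 3 higher calls became 1 with replicates 2 and 3 alone and 1 to 4 without single arrays, and the 1 lower call became 0 with pseudocount 1, no filter, the stricter filter or no intensity trend, and 0 to 1 without single arrays. Over all tested probe sets, higher calls with single arrays left out ran from 204 to 398 for KSR1 against GFP and from 188 to 347 in the interaction. In the double line they ran from 382 to 598 against KSR1, 359 to 501 against H-RasV12 and 348 to 539 against GFP. Counts over all tested probe sets under the other settings, such as the replicate block, are not given here. The member counts under those settings therefore have no background beside them. The cause of these changes was not tested. Leaving out arrays lowers the number of samples in the fit. For several genes above, the losses that are named cover arrays left out alone. In the import class, for instance, the 2 higher calls against H-RasV12 became 1 with no filter or no intensity trend.

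Same-numbered arrays deviated from their group means with correlations of -0.02 to 0.51 (13 of 18 pairs over 0.1), against -0.44 to 0.24 for differently numbered arrays, and 10 of 12 arrays correlated best with their own number. The labels do not say what a number shares, so the replicate block is an alternative alone. Median fold changes of the classes in the double line stayed above 0 under all settings. The ribosome median ran from 0.20 to 0.33 against GFP, 0.22 to 0.36 against H-RasV12 and 0.11 to 0.23 against KSR1. The import median ran from 0.22 to 0.40, 0.12 to 0.48 and 0.11 to 0.31 against these lines in turn. The carrier median ran from 0.13 to 0.29, 0.03 to 0.15 and 0.23 to 0.36. Dim probe sets, such as that of Slc25a3, limit what can be said of their genes.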
